A study of Mus musculus with 8 samples.

Results

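The genes described here encode the core and accessory subunits of Polycomb repressive complex 2 (PRC2) and were chosen by name: every gene probe of the array whose annotated gene was Ezh1, Ezh2, Eed, Suz12, Phf1, Phf19, Mtf2, Jarid2, Aebp2 or Rbbp7. These are 10 of the 27745 gene names on the array, read by 17 of its 41174 gene probes. The first 4 genes were taken as core and the other 6 as accessory subunits. Rbbp7 was put with the accessory proteins as in the study.

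PRC2 is the histone methyltransferase that places methyl groups on lysine 27 of histone H3, a mark of silenced developmental genes. Its catalytic subunit is either EZH2, which is abundant in dividing cells, or the related EZH1, which is found also in resting cells, and neither works without EED, which binds the methylated histone tail, and SUZ12, the scaffold of the complex. Accessory proteins bind SUZ12 and set where and how well the complex works: the Polycomb-like proteins PHF1, MTF2 and PHF19, which bind DNA rich in CpG and a mark of active chromatin, JARID2 and AEBP2, which form a second kind of complex, and the histone-binding protein RBBP7. In the cells described here, the transcripts of these subunits were compared in the absence and presence of Lats2, a kinase of the Hippo pathway.

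RNA came from mouse embryonic fibroblasts (MEFs) of Lats2-/- and Lats2+/+ embryos, labelled as strain C57BL/6J, grown in DMEM with serum and without any treatment. Each of 3 litters, numbered 112, 116 and 121, gave 1 Lats2-/- and 1 Lats2+/+ culture, each with its own clone name, so a genotype within a litter rests on 1 culture. Both extracts of a litter were hybridised together to 2-colour arrays, with the dyes exchanged on a second array. Litters 112 and 116 had 2 arrays each on one slide, and litter 121 had 4 arrays on another slide. How the Lats2 allele was made and the age of the embryos are not given in the sources used here. All ratios below are log2 ratios of Lats2-/- over Lats2+/+ averaged within a litter, n = 3 litters throughout, and all levels are log2 signals after normalization, which can be compared between extracts for 1 probe but not between probes.

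On the 8 arrays, the median spot signal was 60.9 to 68.2 in green and 83.1 to 94.2 in red, and a channel had 53.1 to 61.6% of its gene probes above background. Of the fibroblast markers Col1a1, Col1a2, Col3a1, Vim, Thy1, Pdgfra, Pdgfrb and Fn1, 7 of 8 were above background in all 6 extracts, whereas 0 of 4 epithelial markers passed the filter on dim probes. The litters differed widely in this list: the median ratio of the 8 fibroblast markers was 0.10, 1.95 and -0.93 in litters 112, 116 and 121, and their summed level spanned 17.70 to 18.74 log2 units in Lats2-/- and 17.51 to 18.61 in Lats2+/+ extracts. The highest ratio was 3.70, of Col3a1 in litter 116. The lowest was -4.96, of Pdgfra in litter 121, where 7 of the 8 were lower and 1 was higher. Summed levels were 8.07 to 8.43 in Lats2-/- and 8.03 to 8.35 in Lats2+/+ extracts for the epithelial list, 8.12 to 8.43 and 8.22 to 8.32 for the leukocyte list, and 8.13 to 8.37 and 8.12 to 8.19 for the endothelial list. The neural list, of which Nes and Tubb3 passed the filter and Sox2 and Gfap were above background in 0 extracts, spanned 9.74 to 12.76 and 9.59 to 10.38. In litters 112, 116 and 121 the ratios were -0.36, 0.77 and 4.10 for Nes and -0.84, 0.39 and 0.40 for Tubb3. In such bulk RNA, fewer cells of a type and less RNA per cell cannot be told apart, and the part of these differences in the results below was not tested.

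Lats2 itself was read by 4 probes. The probe nearest the 5′ end had ratios of -1.33, -1.05 and -0.56 and was lower in Lats2-/- on 8 of 8 arrays. The other 3 probes were lower in litters 112 and 116 and higher, by 0.80 to 1.17, in litter 121, so that on these probes litter 121 went against its labels. Which of the 4 probes lie in the deleted part of the gene is not given in the sources used here. The study also presents a western blot of LATS2 protein as showing the knockout in the MEFs, in cells whose litter these sources do not name. The genotypes of litter 121 are therefore used as labelled, ratios are given litter by litter, and the mean of each of the 10 genes is also given without litter 121. Because litter 121 was alone on its slide, the litter and the slide cannot be told apart.

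The start regions of the genes show part of how they are built. RefSeq promoter windows, from 250 bases before to 50 after an annotated transcript start on assembly GRCm38.p6, were found for all 10 genes, 14 windows in all. They were read for E2F-type letters (TTTCCCGC, TTTGGCGC, TTTCGCGC or TTTGCCGC), the kind of site through which cell cycle genes are timed, and for the TEAD-type letters CATTCC, the kind of site used by the transcription factors downstream of the Hippo pathway, each on both strands. The windows of the 2 catalytic subunits and of Phf1 and Phf19, the pairs compared below, are printed 5′ to 3′ along the gene, with E2F-type matches in capitals.
Ezh1 (chr11:101226414-101226713, minus strand): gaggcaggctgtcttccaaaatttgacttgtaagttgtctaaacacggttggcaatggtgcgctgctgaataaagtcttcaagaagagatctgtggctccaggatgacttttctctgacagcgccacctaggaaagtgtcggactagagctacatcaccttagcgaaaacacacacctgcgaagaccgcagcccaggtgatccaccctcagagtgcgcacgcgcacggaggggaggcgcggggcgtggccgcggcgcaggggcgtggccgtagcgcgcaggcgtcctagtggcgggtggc
Ezh2 (chr6:47594981-47595280, minus strand): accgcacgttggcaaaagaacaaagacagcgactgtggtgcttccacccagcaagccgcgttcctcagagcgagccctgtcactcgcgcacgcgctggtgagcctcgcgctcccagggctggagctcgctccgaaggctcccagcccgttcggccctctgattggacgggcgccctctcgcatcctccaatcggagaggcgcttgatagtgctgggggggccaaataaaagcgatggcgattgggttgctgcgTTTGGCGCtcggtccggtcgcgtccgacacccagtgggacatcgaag
Phf1 (chr17:26932877-26933176, plus strand): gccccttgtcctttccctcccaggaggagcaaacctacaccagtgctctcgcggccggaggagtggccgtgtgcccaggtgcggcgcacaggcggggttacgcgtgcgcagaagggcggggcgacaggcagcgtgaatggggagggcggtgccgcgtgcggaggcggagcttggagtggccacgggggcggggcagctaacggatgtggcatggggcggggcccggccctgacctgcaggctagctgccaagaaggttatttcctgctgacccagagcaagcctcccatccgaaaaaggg
Phf19 (chr2:34913927-34914226, minus strand): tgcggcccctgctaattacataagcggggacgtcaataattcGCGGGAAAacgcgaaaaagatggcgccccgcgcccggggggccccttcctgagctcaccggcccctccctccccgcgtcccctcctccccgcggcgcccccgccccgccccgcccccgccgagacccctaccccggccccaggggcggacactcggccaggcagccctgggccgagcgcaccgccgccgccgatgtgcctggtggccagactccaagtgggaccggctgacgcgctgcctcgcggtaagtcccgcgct
An E2F-type match was present in 3 of the 14 windows, those of Ezh2, Phf19 and Suz12, against 2.27% of the 32851 windows of the table. In Ezh2 it began at base 4 of the transcript, in Phf19 208 bases before the start on the opposite strand, and in Suz12 (chr11:79992856-79993155, plus strand) 219 bases before the start. The Ezh1 and Phf1 windows held none. A TEAD-type match was present in 1 of the 14 windows, 1 of the 3 of Aebp2, against 14.7% of all windows. These are matches of letters only, and binding was not measured.

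Of the 17 probes, 16 passed the filter on dim probes (well above background in at least 2 of 3 extracts of either genotype), and all 10 genes kept at least 1 probe. The exception was a Jarid2 probe to a separate cDNA, which was above background in 0 of 16 channels. A gene is represented below by its brightest kept probe, and probe positions are those of the array annotation on mouse build mm8. Among the 10 genes, Phf1 was higher and Phf19 and Suz12 were lower in Lats2-/- MEFs in all 3 litters, Ezh2 changed direction between litters, and the mean ratios of the remaining 6 lay between -0.14 and 0.12. None of the 16 probes passed an adjusted p of 0.05 (limma, Benjamini-Hochberg over 22643 probes), as was true of 0% of all kept probes, the smallest adjusted p anywhere being 0.634. At an unadjusted p under 0.05 there were 2 member probes of 16, where 6.84% of all kept probes passed. They were 1 of 16 higher (3.56% of all probes) and 1 of 16 lower (3.29%). A single direction in all 3 litters was seen for 4 of 16 probes, or 3 of 10 genes, against 29.7% of all kept probes. Of these probes 3 were lower throughout (14.8% of all) and 1 was higher throughout (15% of all). The median of the 10 genes' mean ratios was -0.01, and that of all kept probes was 0.01. Counts at this level were therefore not far from those of the array as a whole, and no gene reached a 2-fold mean difference.

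**Figure D1:**
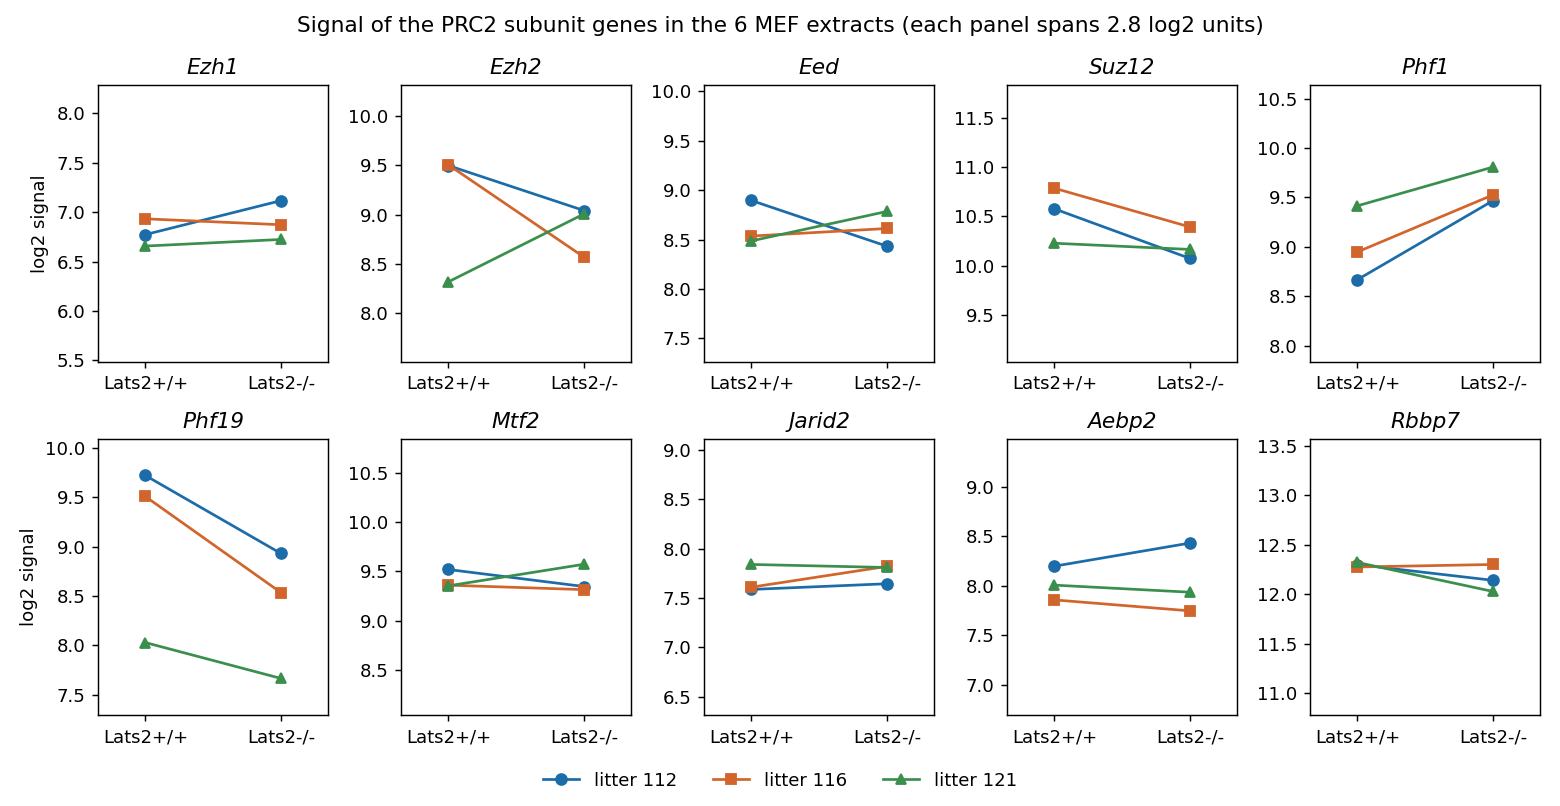
Log2 signal (vertical axis) of each of the 10 genes at its brightest kept probe in the 3 Lats2+/+ and 3 Lats2-/- extracts, a line joining the 2 extracts of a litter; all panels span the same range. All 3 lines rise for Phf1 and fall for Phf19 and Suz12, while the Ezh2 lines cross.

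Among the core subunits, Ezh2 (chromosome 6, 47461634 to 47462529, minus strand), the catalytic subunit of dividing cells, varied most between litters. Its log2 signal was 9.04 in Lats2-/- against 9.50 in Lats2+/+ cells of litter 112, 8.57 against 9.50 in litter 116, and 9.01 against 8.32 in litter 121. The Lats2+/+ extract of litter 121 was the lowest of the 6 and those of the other litters were the highest, so that the Lats2+/+ extracts spanned 1.18 log2 units and the Lats2-/- extracts 0.47. The ratios were thus -0.46, -0.93 and 0.69, with a mean of -0.23 ± 0.83 (SD), or 85.0% of the Lats2+/+ level. Limma gave an adjusted p of 0.911 (0.553 before adjustment). The upper end of its 95% interval was 0.78 and the lower end lay beyond a 2-fold decrease, so a decrease or an increase of this gene could have been missed. Arrays of a litter differed by at most 0.06, and all 8 arrays had the sign of their litter. The SD between litters was larger than that of 91.6% of kept probes. Without litter 121, the mean ratio was -0.69, 61.8% of the Lats2+/+ level, with a limma adjusted p of 0.733 and an unadjusted one of 0.0394.

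Ezh1 (chromosome 11, 101007913 to 101007972, minus strand), the catalytic subunit that can stand in for EZH2 in resting cells, had signals of 7.12 and 6.77 in the Lats2-/- and Lats2+/+ extracts of litter 112, 6.87 and 6.93 in litter 116, and 6.72 and 6.66 in litter 121. All 6 signals lay within a narrow range and the genotypes overlapped. Its ratios of 0.34, -0.06 and 0.07 gave a mean of 0.12 ± 0.21, with a 95% interval of -0.24 to 0.48 and an adjusted p of 0.862 (limma). Leaving out a litter moved this mean to 0.0035 (without 112), 0.21 (without 116) or 0.14 (without 121). The mean also depended on the handling of background. It was 0.17 with an offset of 16 in place of 50 in the background correction, and 0.27 from the scanner's processed signals. The ratio of Ezh1 minus that of Ezh2 was 0.80, 0.87 and -0.62 in litters 112, 116 and 121. It favoured Ezh1 in 2 of 3 litters and Ezh2 in the other. The mean difference was 0.35 ± 0.84, and the exact two-sided sign-flip permutation test over 3 litters gave p = 0.5, where 0.25 is the smallest p that 3 litters allow. On the slide with litters 112 and 116 the mean difference was 0.84.

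Suz12 (chromosome 11, 79849944 to 79850003), the scaffold, had signals of 10.07 against 10.58, 10.39 against 10.78 and 10.17 against 10.23 in Lats2-/- and Lats2+/+ extracts of litters 112, 116 and 121. Each Lats2-/- extract was below its littermate, although the genotypes overlapped across litters and the difference in litter 121 was small. The ratios were -0.50, -0.39 and -0.06, a mean of -0.32 ± 0.23 or 80.2% of the Lats2+/+ level (95% interval -0.70 to 0.06, unadjusted p = 0.0792, adjusted p = 0.719, limma). A second probe (79829671 to 79829730) read -0.57, -0.46 and -0.09 and differed from the first by at most 0.07 in a litter. Its mean was -0.37 ± 0.25 (limma, adjusted p = 0.711, unadjusted p = 0.0604). Leaving out litter 121 moved the mean of the first probe to -0.45 and that of the second to -0.52.

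Eed (chromosome 7, 89840003 to 89842912, minus strand), the subunit that reads the mark, had signals of 8.43 against 8.90, 8.61 against 8.54 and 8.78 against 8.49. It was lower in Lats2-/- cells only in litter 112, and higher in the other 2. The ratios of -0.46, 0.08 and 0.30 averaged -0.03 ± 0.39 (95% interval -0.56 to 0.50, adjusted p = 0.983, limma), and the sign of this mean depended on which litter was left out, being -0.19 without litter 121 and 0.19 without litter 112.

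**Figure D2:**
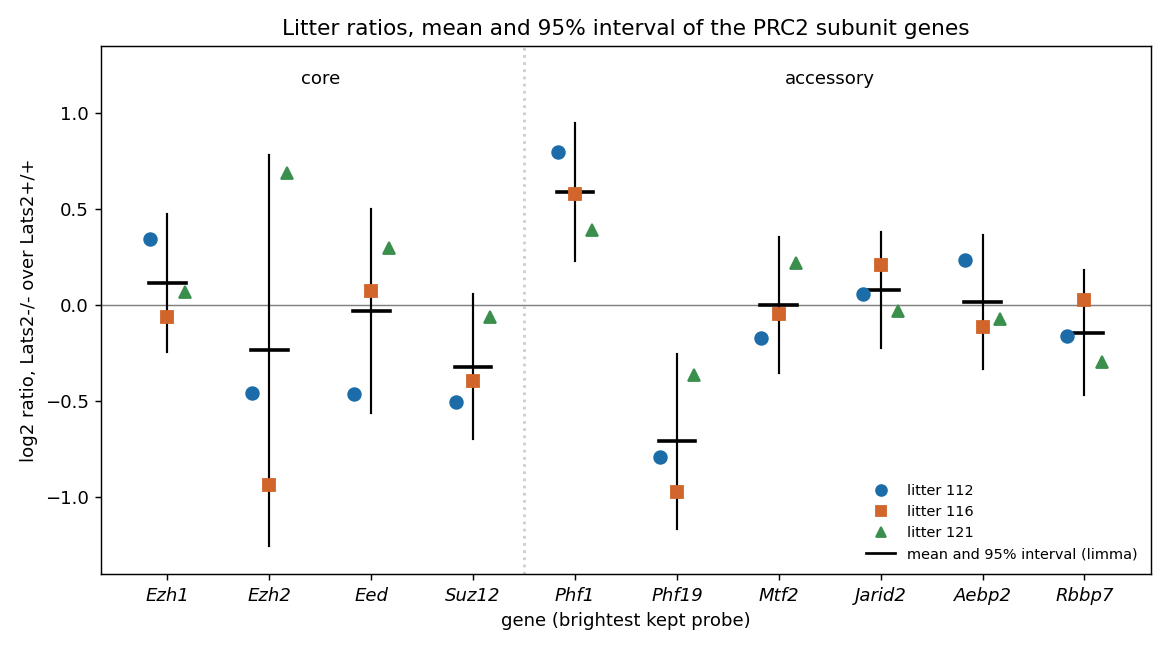
Log2 ratio of Lats2-/- over Lats2+/+ (vertical axis) for each gene (horizontal axis); coloured symbols are the 3 litters, and black bars the mean with its 95% interval from limma. Only the intervals of Phf1 (0.23 to 0.95) and Phf19 (-1.16 to -0.25) leave out 0 before adjustment, and that of Ezh2 is the widest.

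The accessory subunits held the genes with the largest mean ratios in each direction, and both were Polycomb-like proteins. Phf1 (chromosome 17, 26665359 to 26665418) encodes a protein that lengthens the stay of PRC2 on chromatin. Its signal was 9.47 in Lats2-/- against 8.67 in Lats2+/+ cells of litter 112, 9.53 against 8.95 in litter 116, and 9.81 against 9.42 in litter 121. All 3 Lats2-/- extracts were above all 3 Lats2+/+ extracts, a separation in this direction that 3.09% of all kept probes showed. The ratios of 0.80, 0.58 and 0.39 gave a mean of 0.59 ± 0.20, or 150.5% of the Lats2+/+ level. All 8 arrays were above 0. The unadjusted p was 0.0107 and the adjusted p 0.711 (limma), with a 95% interval of 0.23 to 0.95. Without litter 121 the mean was 0.69 and the adjusted p 0.733 (limma). Without litter 112 the mean was 0.48 and the unadjusted p 0.0549 (limma).

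Phf19 (chromosome 2, 34716077 to 34716135, minus strand) encodes a protein that recruits PRC2 to chromatin carrying a mark of transcription. Its signal was 8.93 in Lats2-/- against 9.72 in Lats2+/+ cells of litter 112, 8.53 against 9.51 in litter 116, and 7.67 against 8.03 in litter 121. Both extracts of litter 121 were lower than any extract of the other litters, and within every litter the Lats2-/- extract was the lower one. The ratios of -0.79, -0.97 and -0.36 gave a mean of -0.71 ± 0.31, or 61.2% of the Lats2+/+ level. All 8 arrays were below 0. The unadjusted p was 0.0129 and the adjusted p 0.711 (limma), with a 95% interval of -1.16 to -0.25. Without litter 121 the mean was -0.88, 54.3% of the Lats2+/+ level, and the adjusted p was 0.733. The unadjusted p was 0.0677 without litter 112, 0.0511 without litter 116 and 0.236 in a fit that ignored the pairing (limma).

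Mtf2 (chromosome 5, 108339454 to 108341139), the third Polycomb-like protein and the main one in stem cells, had ratios of -0.17, -0.05 and 0.22, a mean of 0.00 ± 0.20 (95% interval -0.35 to 0.36). Its 4 probes, spread over the gene, had mean ratios between -0.03 and 0.03, and each was lower in litters 112 and 116 and higher in litter 121. Without litter 121 the mean of the first probe was -0.11. The 3 Polycomb-like genes therefore had 3 different patterns. The ratio of Phf1 exceeded that of Phf19 by 1.59, 1.55 and 0.76 in litters 112, 116 and 121, a mean of 1.30 ± 0.47; this pair was picked after its values were seen, so the difference is given without a test.

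**Figure D3:**
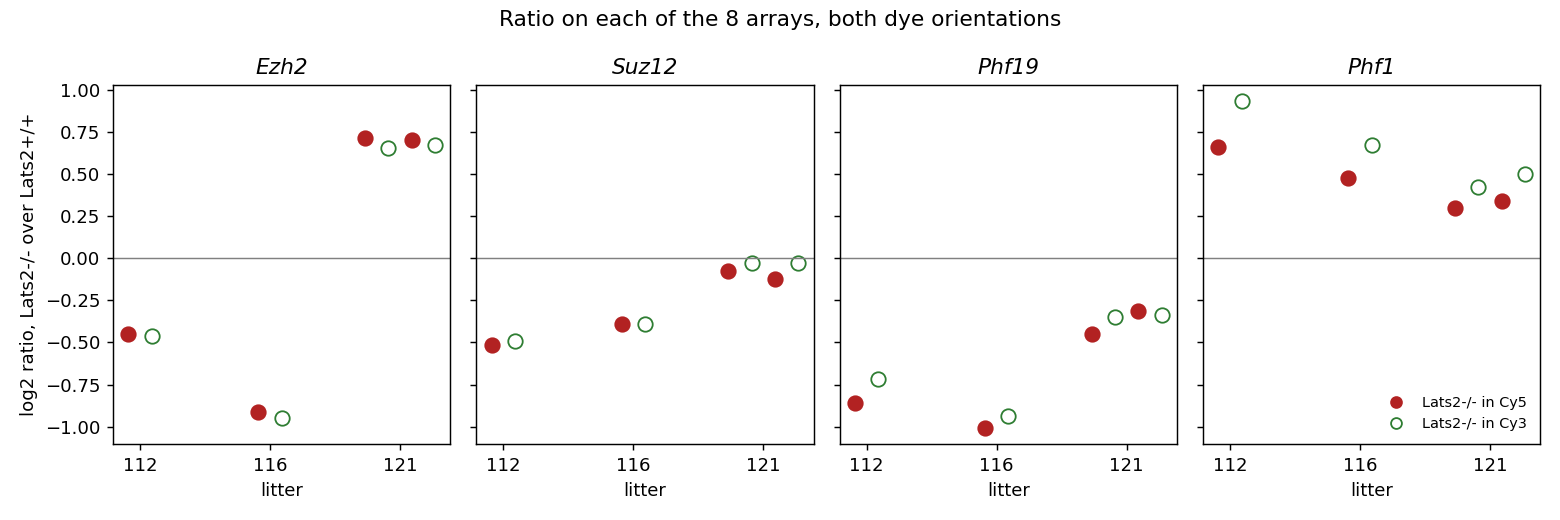
Log2 ratio of Lats2-/- over Lats2+/+ (vertical axis) on each of the 8 arrays, by litter, for 4 genes; filled symbols have Lats2-/- in Cy5 and open symbols in Cy3. For Ezh2 the arrays of a litter lie within 0.06 of each other while litters span 1.62, and for Phf1 and Phf19 all 8 arrays lie on the same side of 0.

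The remaining accessory genes had small mean ratios. Jarid2 (chromosome 13, 44931850 to 44931909), which brings PRC2 to its targets, had ratios of 0.06, 0.21 and -0.03, with a mean of 0.08 ± 0.12 (95% interval -0.22 to 0.38), and its second kept probe had a mean of 0.09. Aebp2 (chromosome 6, 140614187 to 140614246), which stabilises the complex on nucleosomes, had ratios of 0.23, -0.11 and -0.07, with a mean of 0.02 ± 0.19 (95% interval -0.33 to 0.36), and its second probe had a mean of -0.03. Rbbp7 (chromosome X, 158122533 to 158122592) is shared with histone deacetylase complexes. Its ratios of -0.16, 0.03 and -0.29 gave a mean of -0.14 ± 0.16 (95% interval -0.47 to 0.18), with 1 of 2 arrays of litter 116 left out as an outlier spot. For Mtf2, Jarid2, Aebp2 and Rbbp7 the adjusted p lay between 0.808 and 0.999 (limma), and each interval reached less than 0.5 on either side of 0. Without litter 121 the means were 0.13 for Jarid2, 0.06 for Aebp2 and -0.07 for Rbbp7, and without litter 116 those of Jarid2 and Rbbp7 were 0.013 and -0.23.

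The mean of the core genes differed in sign between litters. The mean ratio of the 4 core genes was -0.27, -0.33 and 0.25 in litters 112, 116 and 121 (mean -0.12 ± 0.32, and -0.30 without litter 121), with 3, 3 and 1 of the 4 genes lower. The mean of the 6 accessory genes was 0.00, -0.05 and -0.02 (mean -0.03 ± 0.02, and -0.03 without litter 121), with 3, 3 and 4 of the 6 genes lower, and Phf1 and Phf19 pulled this mean in opposite directions. Core minus accessory was -0.26, -0.27 and 0.27, a mean of -0.09 ± 0.31, and -0.27 without litter 121. With Rbbp7, often counted as a core protein, moved to the core it was -0.12. These averages over chosen genes are descriptions and were not tested.

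The litters also differed in proliferation genes. Of 29 genes of DNA replication and mitosis, 28, 27 and 4 were lower in Lats2-/- cells of litters 112, 116 and 121, and their median ratios were -0.58, -0.55 and 0.24, where the median over all kept genes was 0.02, 0.01 and 0.01. The mean log2 signal of these genes was 11.23, 10.85 and 10.78 in the Lats2-/- extracts and 11.83, 11.39 and 10.58 in the Lats2+/+ extracts of litters 112, 116 and 121. The Lats2+/+ extract of litter 121 was the lowest in this list, as it was for Ezh2. Ezh2, Mtf2 and the core mean had the sign of the proliferation median in each litter. Phf19 and Suz12 differed from it in sign only in litter 121, with ratios of -0.36 and -0.06, Ezh1 only in litter 112 and Eed only in litter 116. Jarid2 had the opposite sign in every litter, with ratios of 0.06, 0.21 and -0.03. Phf1 was opposite in litters 112 and 116 (0.80 and 0.58). Aebp2 was opposite in litters 112 and 121 (0.23 and -0.07), and Rbbp7 in litters 116 and 121 (0.03 and -0.29). The part of proliferation in the PRC2 ratios was not tested. Of the 29 genes, 0 passed the adjusted threshold and 2, Mcm6 and Ccnb2, were lower at an unadjusted p under 0.05 (limma), beside 3.29% of all kept probes. Without litter 121 the median of the genes' mean ratios moved from -0.33 to -0.58 and 15 of 29 were lower at this level, beside 3.1% of all kept probes, with 0 adjusted calls. Without litter 112 the median was -0.19 and 2 of 29 were lower at this level, beside 2.39% of all kept probes. Without litter 116 the median was -0.20 and the count 1 of 29, beside 2.45%.

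**Figure D4:**
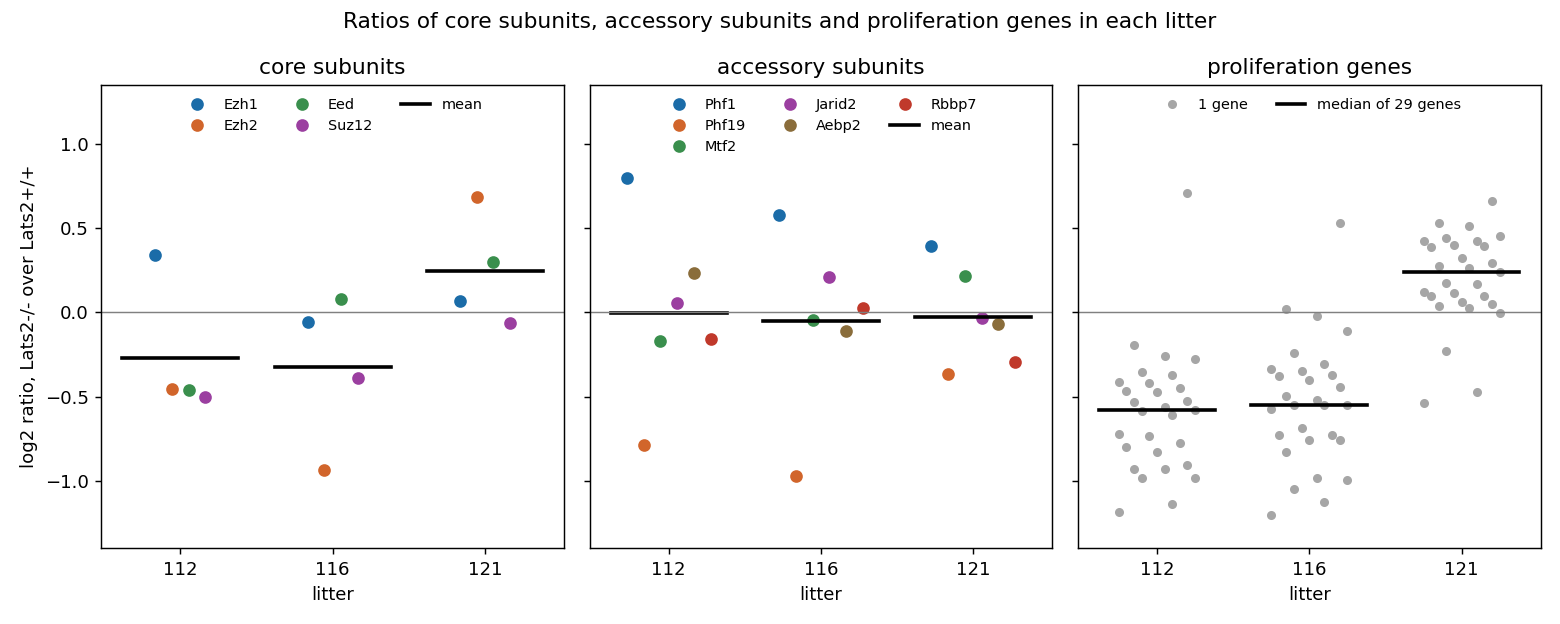
Log2 ratio of Lats2-/- over Lats2+/+ (vertical axis) by litter (horizontal axis) for the 4 core genes, the 6 accessory genes and 29 proliferation genes, each point 1 gene and each black bar the mean (left, middle) or the median (right). The bars of the core and the proliferation genes are below 0 in litters 112 and 116 and above 0 in litter 121, and those of the accessory genes stay between -0.05 and 0.00.

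The genes whose 3 litter ratios lay nearest to those of Ezh2, by Euclidean distance over 14791 kept genes, were Nlrx1 (distance 0.06), Tmpo (0.14), Ankrd13c (0.15), Arhgap11a (0.16) and a transcript listed as TC1636880 (0.18). With 3 points per gene, such closeness is a description of these litters only.

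None of the other genes of the Polycomb system passed the adjusted threshold (limma). Among 6 further PRC2-bound and demethylase genes measured, 1 was higher at an unadjusted p under 0.05 (3.56% of all kept probes were) and 0 were lower (3.29%). The gene was Kdm6b, a demethylase that removes the PRC2 mark, with ratios of 0.57, 0.47 and 0.19 and a mean of 0.41 ± 0.20 (unadjusted p = 0.0330, adjusted p = 0.711, limma). The other demethylase of the list, Kdm6a, had a mean of -0.02 ± 0.07. Epop, which encodes a protein that binds PRC2 and Elongin, had a mean ratio larger in size than that of any of the 10 subunit genes. Its ratios of -1.31, -1.48 and -0.04 averaged -0.94 ± 0.79 (unadjusted p = 0.0534, adjusted p = 0.711, limma). Without litter 121 its mean was -1.39 (unadjusted p = 0.00268, adjusted p = 0.733, limma). Of 18 kept genes of Polycomb repressive complex 1, which binds the mark that PRC2 leaves, 1 was higher at this level and 0 were lower, beside the same 3.56% and 3.29% of all kept probes. The gene was Phc1 (0.31, 0.26 and 0.28, mean 0.28 ± 0.02, adjusted p = 0.711, limma). The ratios of Cbx6 were -0.15, -0.84 and -0.41, averaging -0.47 ± 0.35 (unadjusted p = 0.0565, adjusted p = 0.711, limma), which was -0.28 without litter 116. The median of the mean ratios was -0.02 in the first list and -0.03 in the second. Without litter 121 these medians were -0.13 and -0.15. The genes called at this level were then Kdm6b (higher, 3.34% of all kept probes) and Epop (lower, 3.1%) in the first list. Without litter 112 or 116, 0 genes of either list were called. The genes named from these lists were named after their values were seen.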

How the data were processed

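Scanner output of 8 arrays was read. Per the labels and the file headers, the authors extracted the spot intensity of both dyes with Agilent Feature Extraction (version 10.5.1.1 in the labels, 10.7.3.1 in the headers). The deposited value table holds log10 ratios of Lats2-/- over Lats2+/+ that differed by at most 0.005 from the scanner's log10 ratios turned that way. Here, limma's normexp correction (offset 50) was applied to mean intensities, which were then loess-normalized within arrays (limma 3.58.1, R 4.3.3), a step that removes any difference common to most genes. Outlier spots were left out, spots of a probe and then arrays of a litter were averaged, and signs were turned to Lats2-/- over Lats2+/+. Probes well above background in at least 2 of 3 extracts of either genotype were kept (22643 of 41174). Litter ratios were tested against 0 with limma, two-sided, adjusted by Benjamini-Hochberg, and the fit was tested on simulated data. Litters are paired by the design, as both genotypes share an array. The methods' t-test, other scalings, filters and blocks were alternatives. All 10 genes were named, with Lats2 and the 5 genes nearest Ezh2. The members and lists were chosen with earlier results of these data known. The number of litters limits the precision.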

Additional observations from a re-analysis of the deposited data

How the results depend on the processing

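With 3 litters, a difference had to be large and even to be resolved. Of the 17 probes, 1 of Jarid2 failed the filter on dim probes. Another Jarid2 probe was above background in 5 of 6 extracts. The mean ratio of Ezh1 moved with the handling of background, to 0.17 with a normexp offset of 16. Phf1 stayed higher (0.48 to 0.69), and Phf19 (-0.91 to -0.58) and Suz12 (-0.45 to -0.23) stayed lower, under all alternatives run, and Jarid2 and Ezh1 kept their sign, between 0.013 and 0.13 for Jarid2 and between 0.0035 (without litter 112) and 0.27 (processed signals and the value table) for Ezh1. Ezh2 was -0.0036 with slide as a block of either kind.

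The count of 0 adjusted calls among member probes became 1 (Phf19, adjusted p = 0.0410) when arrays entered singly with litter as a random block, 0 when a dye term was added to that fit (Phf19, adjusted p = 0.0900, and Phf1, 0.105), and 2 (Phf19, adjusted p = 0.0248, and Phf1, 0.0349) with slide as a random block; arrays of a litter share their extracts, so these fits count more observations than litters. Over all alternatives the adjusted p of Phf19 ran from 0.0248 to 0.9996 and that of Phf1 from 0.0349 to 0.9996. The count of 2 at an unadjusted p under 0.05 was 5 with slide as a random block (17.8% of all probes passed), 1 by the methods' t-test (Phf1, with 5.95%), 1 in the unpaired fit without the replicate block (Phf1, where 2.45% of all probes passed), and 0 to 4 when a litter was left out: 0 without litter 112 (5.06% of all probes), 1 without litter 116 (Phf1, 5.53%) and 4 without litter 121 (Ezh2, Phf1, Phf19 and the second Suz12 probe, with 6.44% of all probes). The cause was not tested, beyond the fewer samples.

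Core minus accessory lay between -0.27 and 0.00 without a litter and was 0.00139 with slide as a block, and Ezh1 minus Ezh2 between 0.09 and 0.84. Signs near 0 turned: Mtf2 to -0.0331 (processed signals and the value table), -0.0251 (median centring) and -0.0307 (quantile), and Aebp2 to -0.0640 (processed signals), -0.0641 (value table), -0.00104 (median centring), -0.0274 (quantile), -0.00495 (slide as a block of either kind) and -0.00801 (all probes). Rbbp7 turned to 0.0884 with median centring and Eed to 0.0526 with slide as a block of either kind. Without a litter, Ezh2 ranged from -0.69 to 0.12, Eed from -0.193 to 0.187, Mtf2 from -0.109 to 0.0865 and Aebp2 from -0.0912 to 0.0813.

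Over all kept probes, adjusted calls rose from 0 to 341 with litter, 717 with slide, and 202 with litter and a dye term as random blocks, and unadjusted calls from 1549 to 2999, 4029 and 2852; they were 2623 without the filter and 554 without the replicate block.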
